A study of Mus musculus with 72 samples.

Results

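Cytochrome P450 families 2 and 3 of the mouse were followed in liver, epididymal white adipose tissue (eWAT) and pituitary. Members were all protein-coding genes whose symbol is Cyp2 or Cyp3, then 1 letter, then a number, and 56 of the 55416 genes in the RNA-seq counts met this rule. By subfamily there were 15 Cyp2c, 9 Cyp2d, 8 Cyp2j, 7 Cyp3a, 5 Cyp2b and 4 Cyp2a genes, and 1 each of Cyp2e, Cyp2f, Cyp2g, Cyp2r, Cyp2s, Cyp2t, Cyp2u and Cyp2w. The animals were 24 male FVB.129P2 mice, 6 in each of 4 groups, and the same 24 mice gave all 3 tissues, so that 72 libraries were counted. FED offspring were born to and nursed by ad libitum fed dams, and CR20 offspring by dams whose food was cut by 20% from embryonic day 15 until weaning on postnatal day 21. From 8 weeks of age the offspring ate a diet of 10% fat (FED-CTRL and CR20-CTRL) or 45% fat (FED-HFD and CR20-HFD). The study's methods give 10 weeks on the diet for these mice, whereas the labels give 10 or 16 weeks. The labels do not say which mice shared a dam.

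Libraries held 9842813 to 27601208 counted reads, and in liver, where most members were read, 9842813 to 19928212. A count of 3 was the floor used for detection, and in liver it amounted to 0.151 to 0.305 CPM (counts scaled to a common library total). Hepatocyte genes were abundant in every liver, adipocyte genes in every eWAT library and pituitary hormone genes in every pituitary. Some libraries stood apart. The livers of CR20-CTRL mice 4 and 5 had haemoglobin and other red blood cell genes at 691 and 346 CPM in sum, against 68.1 to 255 CPM in the other livers. In eWAT, hepatocyte genes summed to 798, 146 and 581 CPM in FED-HFD mouse 10, FED-HFD mouse 13 and CR20-CTRL mouse 5, and epididymis genes to 142, 57.7 and 34.7 CPM in CR20-CTRL mouse 4, CR20-CTRL mouse 5 and CR20-HFD mouse 6. The eWAT of FED-HFD mouse 23 had the lowest sum of adipocyte genes and the highest sum of macrophage genes, 9147 CPM. In pituitary, adipocyte genes summed to 180.04 CPM in FED-HFD mouse 10 and red blood cell genes to 13921 CPM in FED-HFD mouse 13, the highest of the pituitaries. The counts of called members, and some of the values named where these libraries bear on them, are also given without them.

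Cytochromes P450 are haem enzymes anchored in the endoplasmic reticulum that insert 1 oxygen atom into a substrate, with electrons passed on from NADPH by P450 oxidoreductase. Families 2 and 3 carry out much of the oxidation of drugs, plant compounds, steroids and fatty acids in liver, and in rodents they have grown into clusters of similar genes. Nuclear receptors switch many of them on: the constitutive androstane receptor (encoded by Nr1i3) acts chiefly on Cyp2b and Cyp2c genes, and the pregnane X receptor (Nr1i2) on Cyp3a genes. Several mouse members differ between the sexes through the male and female patterns of growth hormone secretion. Cyp2e1 and other members are made mostly in the hepatocytes around the central vein.

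In the GRCm39 assembly the 56 genes lay on 6 chromosomes: 15 on chromosome 19 (the Cyp2c genes), 15 on chromosome 7 (Cyp2a, Cyp2b, Cyp2e, Cyp2f, Cyp2g, Cyp2s, Cyp2t and others), 9 on chromosome 15 (Cyp2d), 8 on chromosome 4 (Cyp2j), 8 on chromosome 5 (Cyp3a and Cyp2w1) and 1 on chromosome 3 (Cyp2u1). Many members had a close copy. The coding sequences of 50 genes were compared, Cyp3a41a and Cyp3a41b outside the naming rule among them. Of these 50 genes, 30 shared at least 90% of their coding sequence with another of them. Cyp2c23 reached 66.9% and Cyp2c70 69.8% with their closest. The coding sequence of Cyp2c37 was 96.1% identical to that of Cyp2c50, Cyp2c54 was 95.2% identical to Cyp2c50, and Cyp2a5 was 98.5% identical to Cyp2a4. Cyp2d40 was 88.3% identical to its closest member, Cyp2d13. How the authors' counting treated reads that fit more than 1 copy is not given in the sources used here, so values of members with such a close copy are uncertain to that extent. Cyp3a41a, which is 95.2% identical to Cyp3a11 and falls outside the naming rule, was read at 0.00768 CPM on average in liver.

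The 150 bases before the transcription start of the 7 members that differed by diet in liver are shown here, since they let the 3 neighbouring Cyp2c genes be compared with the others. Sequences run 5′ to 3′ on the gene's own strand and were read from the GRCm39 genome at the start of the canonical transcript. Capitals mark matches, on either strand, to TATAAA (the TATA box), AGTTCA or AGGTCA (nuclear receptor half-sites), GTTAAT (the HNF1 half-site) and TTGCNNAA (the C/EBP letters), and these motifs did not overlap each other in the lines below. The windows are chr19:39980715-39980864 (plus strand) for Cyp2c37, chr19:40077935-40078084 (plus) for Cyp2c50, chr19:40062283-40062432 (minus) for Cyp2c54, chr7:26534580-26534729 (plus) for Cyp2a5, chr7:26508156-26508305 (plus) for Cyp2g1, chr5:145816868-145817017 (minus) for Cyp3a11 and chr15:82648394-82648543 (minus) for Cyp2d40.
Cyp2c37: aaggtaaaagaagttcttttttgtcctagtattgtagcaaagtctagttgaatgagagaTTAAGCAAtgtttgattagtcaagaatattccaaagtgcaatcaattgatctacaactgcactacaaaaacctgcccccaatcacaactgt
Cyp2c50: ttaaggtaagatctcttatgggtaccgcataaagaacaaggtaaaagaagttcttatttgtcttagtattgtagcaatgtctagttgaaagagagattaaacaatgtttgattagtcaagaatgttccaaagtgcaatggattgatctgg
Cyp2c54: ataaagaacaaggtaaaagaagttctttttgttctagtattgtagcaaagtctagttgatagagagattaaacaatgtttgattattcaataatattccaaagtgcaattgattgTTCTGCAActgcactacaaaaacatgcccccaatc
Cyp2a5: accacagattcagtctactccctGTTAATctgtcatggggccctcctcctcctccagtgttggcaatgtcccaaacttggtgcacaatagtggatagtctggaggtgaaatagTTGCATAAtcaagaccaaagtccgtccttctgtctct
Cyp2g1: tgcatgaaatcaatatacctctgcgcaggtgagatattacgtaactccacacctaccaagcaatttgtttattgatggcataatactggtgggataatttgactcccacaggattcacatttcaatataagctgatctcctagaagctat
Cyp3a11: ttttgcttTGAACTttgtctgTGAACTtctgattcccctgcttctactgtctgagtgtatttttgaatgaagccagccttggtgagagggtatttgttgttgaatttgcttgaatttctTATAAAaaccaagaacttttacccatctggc
Cyp2d40: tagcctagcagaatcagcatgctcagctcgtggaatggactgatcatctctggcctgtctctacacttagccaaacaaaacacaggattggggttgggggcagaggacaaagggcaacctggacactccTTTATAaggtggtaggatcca

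Over the window from 250 bases before to 50 after the start, Cyp2c37 aligned to Cyp2c50 with 90.1% identity, Cyp2c37 to Cyp2c54 with 90.7% and Cyp2c50 to Cyp2c54 with 89.5%. A run of 35 bases was the same in these 3 genes and was found in 3 of the 21770 protein-coding promoters searched, all theirs. TATAAA was present in 28 of the 56 member promoters (50%) against 13.2% of all promoters, TTGCNNAA in 15 (26.8%) against 10.7%, AGGTCA in 17 (30.4%) against 15.1%, GTTAAT in 6 (10.7%) against 6.90% and AGTTCA in 7 (12.5%) against 13.8%. Members of 1 cluster share ancestry, so these counts are not independent of each other. A match describes letters and not a bound site.

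Members took a larger share of counted reads in liver than in the other tissues. The share was 1.25% to 2.68% per library with a median of 2.16%, compared with 0.00870% to 0.110% in eWAT and 0.0232% to 0.0314% in pituitary. The lowest, median and highest shares in liver were 1.81%, 2.18% and 2.21% in FED-CTRL, 1.99%, 2.29% and 2.68% in FED-HFD, 1.25%, 1.95% and 2.07% in CR20-CTRL and 2.03%, 2.19% and 2.61% in CR20-HFD. The groups overlapped, and the lowest 2 CR20-CTRL livers were those of mice 5 and 4. Without them the CR20-CTRL shares were 1.91%, 2.01% and 2.07% (n = 4). Of the 56 members, 34 had at least 3 counts in every liver, 10 stayed under 3 counts in every liver, and 6 of these 10 had no count at all (Cyp2b19, Cyp2b23, Cyp2j7, Cyp2j12, Cyp2j13 and Cyp2w1). The edgeR filter on low counts left 35 members for testing in liver. Counts of changed members in liver given from here on are of those 35, not of all 56, unless another number tested is given.

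**Figure D1:**
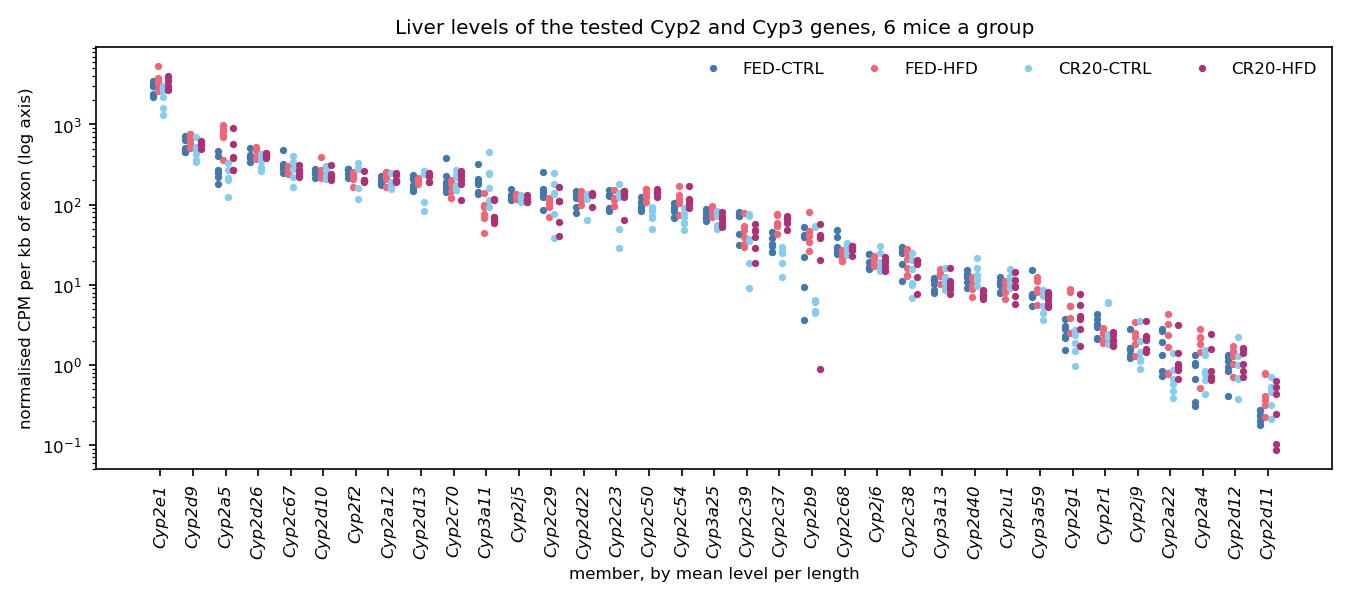
Level of the members in liver, in CPM per kilobase of exon on a log axis, with 1 point for each of the 24 livers coloured by group. Cyp2e1, with a mean of 3029, lies above every other member in all 24 livers, and the groups overlap for most members.

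Cyp2e1, which oxidises ethanol, acetone and paracetamol, was the most abundant member by a wide margin. Per kilobase of exon it reached 3029 ± 825 CPM (mean ± SD, n = 24 livers), it was higher than the next member in 24 of 24 mice, and it held 40.6% of all member counts in liver. The next levels per kilobase were 561 ± 117 CPM for Cyp2d9, the male testosterone 16-alpha-hydroxylase, 433 ± 263 CPM for Cyp2a5, the coumarin 7-hydroxylase, and 404 ± 60.7 CPM for Cyp2d26. Cyp2d9 was above Cyp2a5 in 17 of 24 mice and Cyp2a5 above Cyp2d26 in 10 of 24, so these neighbours were not separated beyond their spread. Cyp2d26 was above Cyp2c67 (282 ± 64.7 CPM per kilobase) in 23 of 24 mice.

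Below these followed Cyp2d10 at 253 ± 43.3 CPM per kilobase and Cyp2f2, the naphthalene oxidising enzyme of lung, at 233 ± 49.2. Cyp2d10 was above Cyp2f2 in 12 of 24 mice, so these too could not be ordered. Cyp2a12 at 204 ± 28.8, Cyp2d13 at 202 ± 45.0 and Cyp2c70 at 195 ± 58.8 CPM per kilobase could not be ordered, since each was above the next in only 10 and 14 of 24 mice. Cyp2a12 and Cyp2c70 hydroxylate bile acids. The highest Cyp3a gene was Cyp3a11 at 146 ± 96.0 CPM per kilobase, the main steroid and drug oxidising enzyme of its subfamily, and the highest Cyp2j gene was Cyp2j5, an arachidonic acid epoxygenase, at 124 ± 11.3. Cyp2j5 had the smallest spread within groups of the abundant members, with an SD of 0.12 on the log2 scale, compared with 0.34 for Cyp2e1, 0.55 for Cyp2a5 and 0.59 for Cyp3a11. With the longest transcript in place of all exons as the length, 8 of the first 10 members stayed among the first 10.

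Rare members were seen too. Cyp2r1, the vitamin D 25-hydroxylase, stood at 2.76 ± 1.18 CPM per kilobase in liver, Cyp2u1, a fatty acid hydroxylase, at 10.0 ± 2.35, and the highest Cyp2b gene, Cyp2b9, at 32.1 ± 21.5. Cyp2b10, the gene of this subfamily best known for induction by phenobarbital, reached 3 counts in 9 of 24 livers and at most 0.567 CPM. Cyp2g1, known as a P450 of the olfactory mucosa, was low but measurable, at 3.64 ± 2.18 CPM per kilobase, with at least 3 counts in 24 of 24 livers.

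The first comparison asked how the members of liver responded to the high fat diet. Averaged over both maternal groups, 5 members rose and 2 fell among the 35 tested. Cyp2c37, Cyp2c50 and Cyp2c54, which act on arachidonic and linoleic acid, Cyp2a5 and Cyp2g1 were higher on the high fat diet, and Cyp3a11 and Cyp2d40 were lower. A gene was called changed at a Benjamini-Hochberg adjusted p of at most 0.055 over all tested genes with a log2 fold change of at least 0.58 in size, by edgeR's quasi-likelihood test. By this rule 1.26% of the 13787 genes tested in liver were called, 0.486% higher and 0.776% lower, against 7 of 35 members, 5 of them higher and 2 lower. All log2 fold changes (log2FC) are of TMM-normalised counts, and the median over the 35 members was 0.11 against -0.01 over all tested genes. Liver was sampled as a bulk tissue, so fewer cells of a type and less RNA per cell cannot be told apart.

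**Figure D2:**
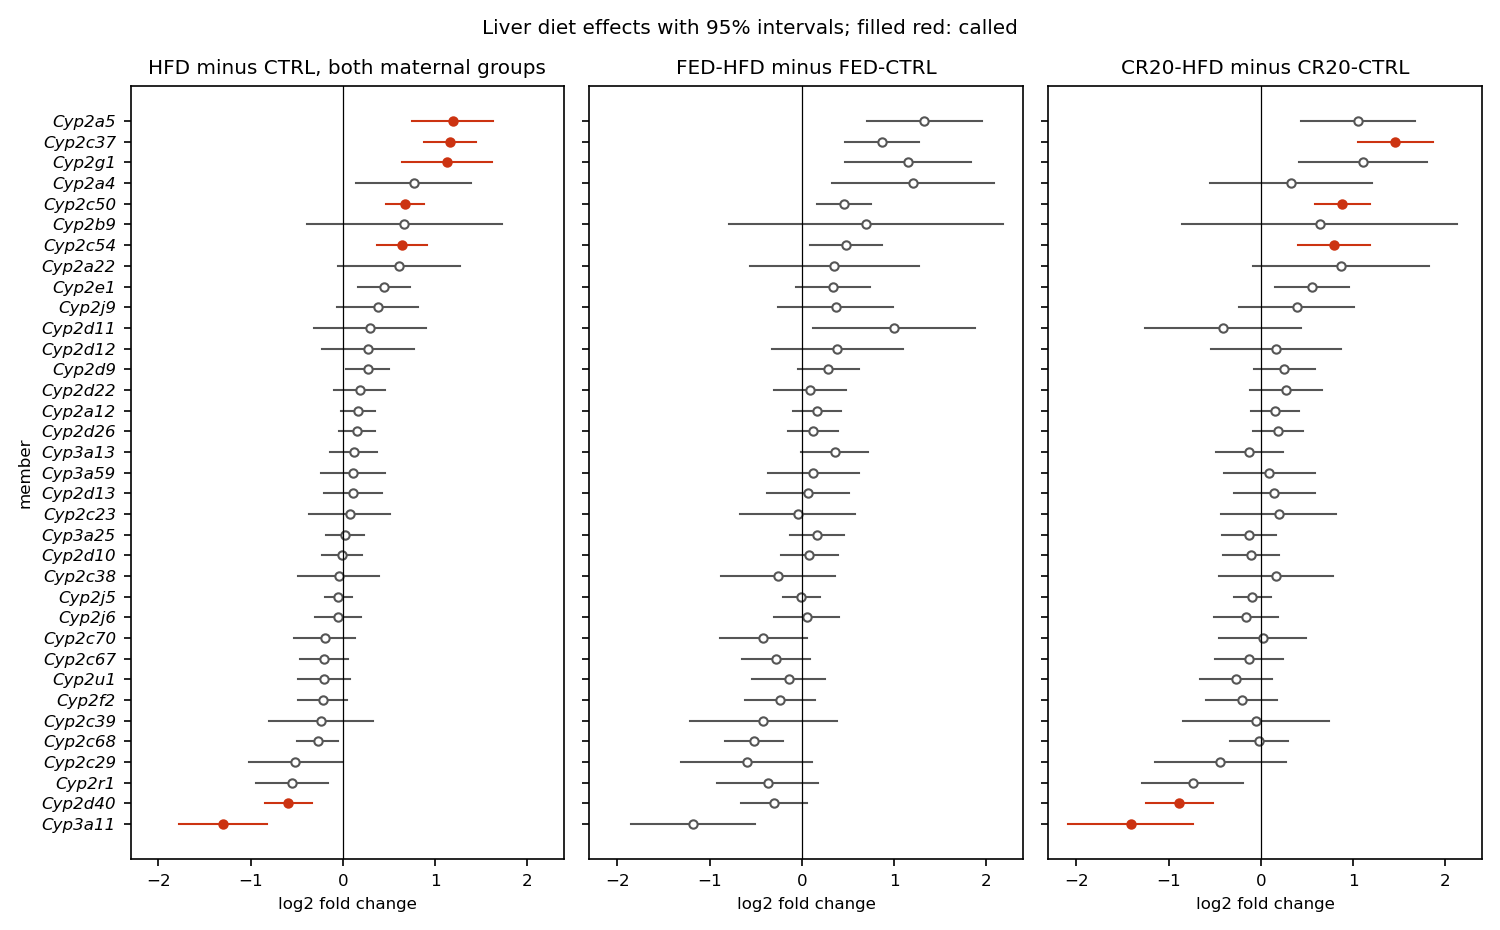
The log2 fold change of high fat over control diet in liver for the 35 tested members, with 95% intervals, in 3 panels: FED mice, CR20 mice and the average of both. Filled red points were called changed: 0 in FED mice, 5 in CR20 mice and 7 in the average.

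The neighbouring Cyp2c37, Cyp2c50 and Cyp2c54 all rose. The lowest, median and highest Cyp2c37 levels were 50.3, 62.8 and 91.3 CPM in FED-CTRL, 85.6, 112 and 153 CPM in FED-HFD, 24.7, 50.3 and 58.8 CPM in CR20-CTRL and 95.7, 134 and 143 CPM in CR20-HFD. Every high fat liver of CR20 mice lay above every control liver of CR20 mice, and in FED mice the groups overlapped slightly. Averaged over maternal groups, Cyp2c37 rose 2.24-fold (log2FC 1.16, SE 0.14, edgeR adjusted p = 1.64e-05). Within CR20 mice it rose 2.74-fold (log2FC 1.46, SE 0.19, edgeR adjusted p = 0.000229) and the exact permutation p over 924 divisions of the 12 mice, two-sided, was 0.00216, the smallest that 6 against 6 can give. Within FED mice the edgeR value was a log2FC of 0.87 (SE 0.19, adjusted p = 0.0868), which did not pass, with an exact permutation p of 0.00433. Exact permutation p-values, here and below, are not adjusted for the number of genes tested.

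Cyp2c50 was more abundant, at 303, 349.7 and 452 CPM (lowest, median, highest) in FED-CTRL, 393, 493 and 582 CPM in FED-HFD, 181, 282 and 338 CPM in CR20-CTRL and 452, 517 and 568 CPM in CR20-HFD. As for its neighbour, the diets did not overlap in CR20 mice and did overlap in FED mice. The averaged rise was 1.59-fold (log2FC 0.67, SE 0.10, edgeR adjusted p = 0.000339) and that within CR20 mice 1.84-fold (log2FC 0.88, SE 0.14, edgeR adjusted p = 0.00259, exact permutation p = 0.00216). In FED mice the log2FC was 0.46 (SE 0.14, edgeR adjusted p = 0.361).

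Cyp2c54 ran lowest to highest from 276 to 420.5 CPM (median 347) in FED-CTRL, from 299.6 to 696 CPM (median 451) in FED-HFD, from 195 to 365 CPM (median 262) in CR20-CTRL and from 368 to 687 CPM (median 443) in CR20-HFD. Here too the diets did not overlap in CR20 mice. It rose 1.55-fold on average (log2FC 0.64, SE 0.13, edgeR adjusted p = 0.00839). The rise within CR20 mice was 1.74-fold (log2FC 0.80, SE 0.19, edgeR adjusted p = 0.0472, exact permutation p = 0.00216), and leaving out 1 mouse ended this edgeR call in 10 of 12 cases, with adjusted p up to 0.113 (without CR20-CTRL mouse 49). With a term for the range of animal numbers, described further on, it was 0.73 (edgeR adjusted p = 0.0609) and no longer passed. The other members on chromosome 19 did not pass by edgeR. Limma voom with quality weights called 9 members on average and added Cyp2c29 and Cyp2a4 to the 7. It called 416 of all 13787 genes there, against 174 by edgeR. By edgeR Cyp2c29, also an epoxygenase, had an averaged log2FC of -0.52 (edgeR adjusted p = 0.347), and the Cyp2c sum over all 15 genes one of 0.05 (SE 0.10, edgeR adjusted p = 0.874).

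**Figure D3:**
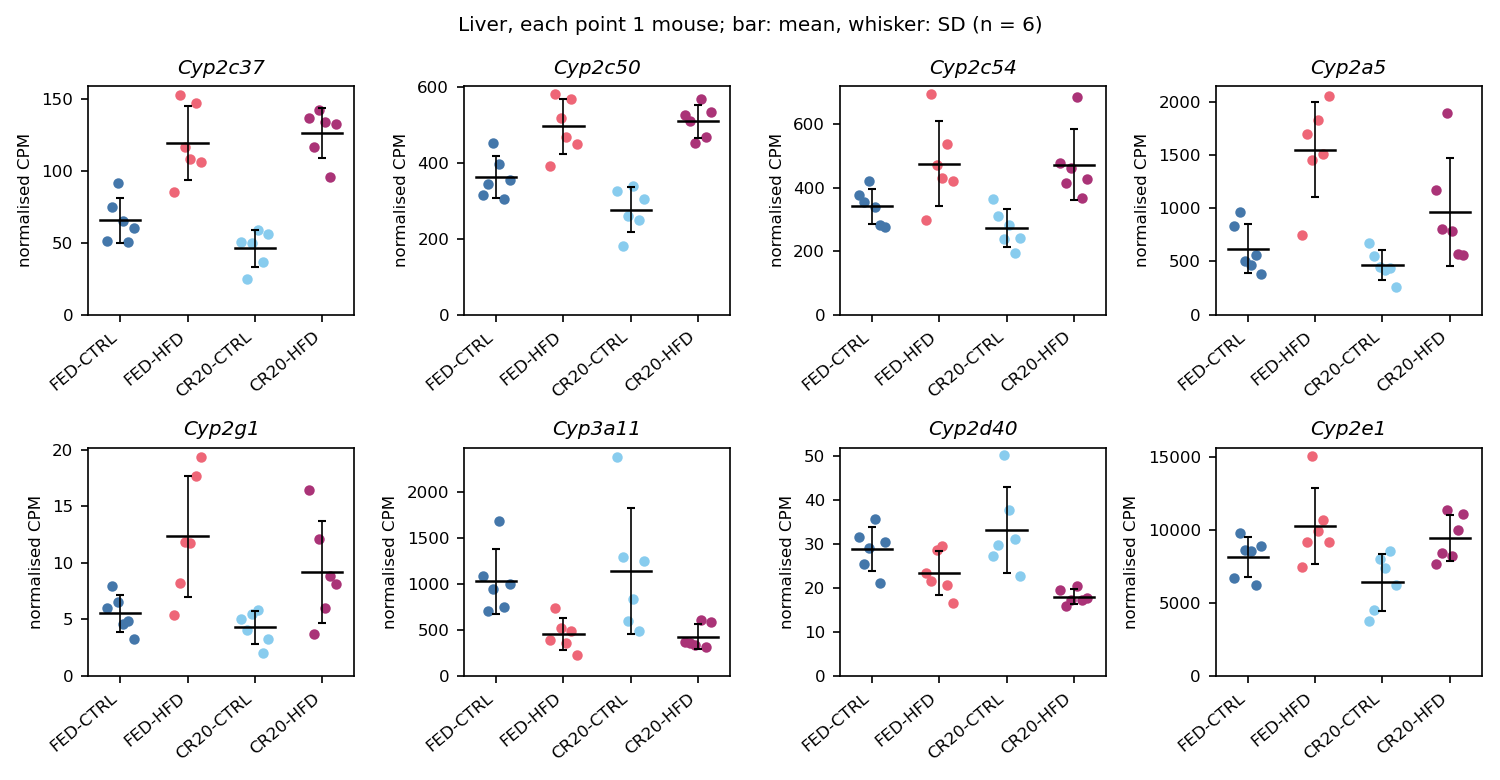
CPM in liver of the 7 members called changed by diet and of Cyp2e1, with 1 point per mouse, bars at the group mean and whiskers of 1 SD (n = 6 per group). Cyp2c37 in CR20 mice separates the diets fully (24.7 to 58.8 CPM against 95.7 to 143 CPM), while Cyp2e1 overlaps between diets.

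Cyp2a5 and Cyp2g1, both on chromosome 7, were the other members that rose. Cyp2a5 stood at 378, 535 and 963 CPM (lowest, median, highest) in FED-CTRL, 751, 1603 and 2056 CPM in FED-HFD, 256, 439.5 and 675 CPM in CR20-CTRL and 562, 794 and 1897 CPM in CR20-HFD. The medians were higher on the high fat diet under both maternal conditions, but the groups overlapped in each. Averaged, Cyp2a5 rose 2.28-fold (log2FC 1.19, SE 0.21, edgeR adjusted p = 0.00241). Neither maternal group passed alone by edgeR: the log2FC was 1.33 in FED mice (SE 0.30, edgeR adjusted p = 0.103) and 1.06 in CR20 mice (SE 0.30, edgeR adjusted p = 0.139). DESeq2 and limma voom with quality weights called it in both. Its close copy Cyp2a4, a steroid 15-alpha-hydroxylase, was measured at 0.539 to 4.88 CPM, with an averaged log2FC of 0.77 (edgeR adjusted p = 0.236).

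Cyp2g1 had 3.31, 5.44 and 7.96 CPM (lowest, median, highest) in FED-CTRL, 5.41, 11.8 and 19.3 CPM in FED-HFD, 2.07, 4.58 and 5.79 CPM in CR20-CTRL and 3.72, 8.46 and 16.4 CPM in CR20-HFD. High fat livers held the upper values, with overlap in both maternal groups. It rose 2.19-fold on average (log2FC 1.13, SE 0.23, edgeR adjusted p = 0.00897). The log2FC was 1.15 in FED mice (edgeR adjusted p = 0.295) and 1.10 in CR20 mice (edgeR adjusted p = 0.193).

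Cyp3a11 fell further than Cyp2d40. Its lowest, median and highest levels were 709, 972 and 1683 CPM in FED-CTRL, 228, 440.3 and 734 CPM in FED-HFD, 489.6, 1043 and 2374 CPM in CR20-CTRL and 311, 363 and 608 CPM in CR20-HFD. Most high fat livers lay below all control livers of their own maternal group, and 1 FED-HFD mouse and 2 CR20-HFD mice reached into the control range. The averaged effect was 2.46-fold lower (log2FC -1.30, SE 0.23, edgeR adjusted p = 0.00234). Within CR20 mice it was 2.66-fold lower (log2FC -1.41, SE 0.33, edgeR adjusted p = 0.0438, exact permutation p = 0.0108). CR20-CTRL mouse 4 had the highest value of all, 2374 CPM, and without CR20-CTRL mice 4 and 5 the CR20 value was -0.89 (edgeR adjusted p = 0.283), while the averaged call stayed. Limma voom with quality weights gave -0.91 in CR20 mice (adjusted p = 0.0900), also short of a call. In FED mice the log2FC was -1.18 (SE 0.32, edgeR adjusted p = 0.264, exact permutation p = 0.00433). The other Cyp3a genes tested, Cyp3a13, Cyp3a25 and Cyp3a59, had averaged log2FC of 0.12, 0.02 and 0.11, with edgeR adjusted p of 0.744, 0.960 and 0.844.

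Cyp2d40, a minor member of the Cyp2d cluster, lay at 21.2, 29.7 and 35.7 CPM (lowest, median, highest) in FED-CTRL, 16.6, 22.5 and 29.6 CPM in FED-HFD, 22.6, 30.5 and 50.2 CPM in CR20-CTRL and 15.8, 17.5 and 20.5 CPM in CR20-HFD. In CR20 mice the diets did not overlap. There it fell by 0.88 on the log2 scale (SE 0.17, edgeR adjusted p = 0.0136, exact permutation p = 0.00216). The averaged value was -0.59 (SE 0.12, edgeR adjusted p = 0.00812), just past the size limit of 0.58, and it dropped under that limit in 7 of 24 fits that left out 1 mouse.

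The most abundant member, Cyp2e1, did not pass. It had 6196, 8591 and 9791 CPM (lowest, median, highest) in FED-CTRL, 7474, 9560.1 and 15056 CPM in FED-HFD, 3754, 6798 and 8562 CPM in CR20-CTRL and 7638, 9186 and 11341 CPM in CR20-HFD. The diets overlapped in both maternal groups. The averaged log2FC was 0.45 with a 95% interval of 0.16 to 0.73 (edgeR adjusted p = 0.100). Cyp2r1 did not pass either, at -0.55 (95% interval -0.94 to -0.17, edgeR adjusted p = 0.146). CR20-CTRL mice 4 and 5 had 20.6 and 20.8 CPM of Cyp2r1, against 6.35 to 8.40 CPM in the other mice of that group. Their Cyp2e1 levels, 3754 and 4533 CPM, were the lowest of the group. The averaged values of Cyp2e1 and Cyp2r1 without these 2 livers are not given here. Among the male-specific Cyp2d genes, Cyp2d9 had a log2FC of 0.27 (95% interval 0.04 to 0.50, edgeR adjusted p = 0.277).

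Within each maternal group, 5 of 35 members were called in CR20 mice (Cyp2c37, Cyp2c50 and Cyp2c54 higher, Cyp2d40 and Cyp3a11 lower), against 0.522% of all tested genes, 0.138% higher and 0.384% lower. DESeq2 called these and Cyp2a5, and limma voom with quality weights called Cyp2a5 in place of Cyp3a11. Of all 13787 genes, DESeq2 called 151 and limma voom 121 in CR20 mice, against 72 by edgeR. With only the 12 CR20 mice in the fit, 1 member was called, Cyp2c37, and the log2FC of the other 4 was 0.87 for Cyp2c50, 0.79 for Cyp2c54, -0.89 for Cyp2d40 and -1.42 for Cyp3a11, with edgeR adjusted p of 0.0636, 0.180, 0.112 and 0.213. In FED mice the edgeR test called 0 of 35 members and 0.109% of all genes. There 9 members had an unadjusted p under 0.05, against 6.66% of all genes. DESeq2 called 2 (Cyp2a5 and Cyp2c37) and limma voom with quality weights 3 (these and Cyp3a11). Of all 13787 genes, DESeq2 called 49 and limma voom 52 in FED mice, against 15 by edgeR. The difference between the maternal groups in the diet response was tested directly and 0 members passed, with 0% of all genes. For Cyp2c37 that interaction was 0.59 (SE 0.27), for Cyp2c50 0.42 (SE 0.20), for Cyp2d40 -0.58 (SE 0.24), for Cyp2d11 -1.40 and for Cyp2c68 0.49, each with an edgeR adjusted p of 0.999. Cyp2d11 was near the detection floor, at 0.137 to 1.25 CPM over the 24 livers. An unadjusted p under 0.05 was found for 5 members and 1.755% of all genes. Neither DESeq2 nor limma voom called a member there.

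Summed by subfamily and tested as single rows among all genes, 3 sums passed by diet on average. Each of the 3 holds a member called singly (Cyp2a5, Cyp3a11 or Cyp2g1), so the sums are not separate results. The share of all rows called in this fit is not given here. The Cyp2a sum rose (log2FC 0.72, SE 0.14, edgeR adjusted p = 0.00642), from medians of 1204 and 1085 CPM in FED-CTRL and CR20-CTRL to 2480 and 1630 CPM in FED-HFD and CR20-HFD. The Cyp3a sum fell (log2FC -0.65, SE 0.15, edgeR adjusted p = 0.0210), from medians of 1599 and 1639 CPM to 1146 and 968 CPM. The third was Cyp2g, which is Cyp2g1 alone. The sums of Cyp2d (log2FC 0.14, edgeR adjusted p = 0.470) and Cyp2j (log2FC -0.04, edgeR adjusted p = 0.855) did not pass. Those of Cyp2b, Cyp2c, Cyp2e, Cyp2f, Cyp2r and Cyp2u did not pass either.

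The second question was whether the diet of the dam left a mark on these genes in liver. No member was called. Across CR20-CTRL against FED-CTRL, CR20-HFD against FED-HFD and the maternal effect averaged over both diets, the edgeR test called 0 of 35 members and 0% of all tested genes in each. An unadjusted p under 0.05 was seen for 5, 4 and 5 members respectively, against 2.17%, 3.58% and 4.00% of all tested genes. DESeq2 and limma voom with quality weights also called 0 members. The smallest p values in control fed mice belonged to Cyp2c50 (log2FC -0.39), Cyp2a22 (-1.22) and Cyp2c37 (-0.51), with edgeR adjusted p of 0.999. On the high fat diet they belonged to Cyp3a25 (-0.37), Cyp2a5 (-0.68, 95% interval -1.30 to -0.07) and Cyp2d40 (-0.38), with edgeR adjusted p of 1.00.

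Averaged over both diets, 28 of the 35 members had a log2FC below 0 for CR20 against FED, and the members' median was -0.10 against 0.03 over all tested genes, of which 41.3% were below 0. Without the livers of CR20-CTRL mice 4 and 5 it was 25 of the 37 members then tested, with 50.8% of all genes below 0 and a members' median of -0.13. The individual values with the smallest p were Cyp2a22 at -0.97, Cyp2a5 at -0.55 and Cyp3a59 at -0.42, with edgeR adjusted p of 0.999. Cyp2a22 ran from 3.05 to 11.6 CPM in FED-CTRL, from 3.24 to 18.1 CPM in FED-HFD, from 1.59 to 5.85 CPM in CR20-CTRL and from 2.79 to 13.0 CPM in CR20-HFD. These ranges overlapped throughout.

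Several members varied widely between mice of 1 group. By the SD within groups the most variable members with a mean of at least 1 CPM were Cyp2b9 (1.61 on the log2 scale), Cyp2a22 (0.82), Cyp2c39 (0.76), Cyp2a4 (0.74) and Cyp2c29 (0.67). Cyp2b9, which is predominant in female liver, spanned 7.01 to 103 CPM in FED-CTRL, 51.6 to 159 CPM in FED-HFD, 8.71 to 104.3 CPM in CR20-CTRL and 1.75 to 112 CPM in CR20-HFD. In CR20-CTRL, 4 mice lay between 8.71 and 12.6 CPM and the other 2 at 102 and 104.3 CPM. Cyp2c39, a retinoic acid hydroxylase, ran from 25.9 to 232 CPM and Cyp2c29 from 127 to 859 CPM over the 24 livers.

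Correlations of log2 CPM, each liver taken as its deviation from the mean of its group, were computed for the 10 pairs among these 5 genes over 24 livers, and 5 pairs passed a permutation test after adjustment over the 10. The mice fall into 3 ranges of animal number (under 20, 20 to 39, and 40 or more), what these stand for is not given, and r was repeated in those with enough mice, 11 and 8. Cyp2c39 and Cyp2c29, 89.5% identical in coding sequence, went together (Pearson r = 0.760, permutation p = 4e-05, adjusted p = 0.0004, Spearman rho = 0.644, permutation p = 0.00084, adjusted p = 0.0028). Leaving out the 2 livers farthest from the median of Cyp2c39, the first gene named, gave r = 0.576, and r was 0.705 under 20 and 0.819 at 40 or more. For the pairs below, the 2 livers left out were also chosen by the first gene named alone.

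Cyp2b9 went with Cyp2c39 (r = 0.632, permutation p = 0.00112, adjusted p = 0.0056, rho = 0.710, permutation p = 0.00014, adjusted p = 0.0014, r = 0.698 without 2 livers, 0.484 and 0.909 within the 2 ranges). Cyp2b9 also went with Cyp2a22 (r = 0.574, permutation p = 0.00247, adjusted p = 0.00823, rho = 0.644, permutation p = 0.00083, adjusted p = 0.0028, r = 0.639 without 2 livers, 0.313 and 0.768 within ranges). For Cyp2a22 and Cyp2c39 the value was weaker (r = 0.481, permutation p = 0.0172, adjusted p = 0.0343, rho = 0.544, permutation p = 0.00687, adjusted p = 0.0137, r = 0.426 without 2 livers, 0.227 and 0.652 within ranges). Cyp2a4 and Cyp2c29 went in opposite directions (r = -0.517, permutation p = 0.00955, adjusted p = 0.0239, rho = -0.577, permutation p = 0.00372, adjusted p = 0.0093, r = -0.533 without 2 livers, -0.426 and -0.860 within ranges). Without the livers of CR20-CTRL mice 4 and 5, r in the order given was 0.541, 0.661, 0.577, 0.615 and -0.436 over 22 livers.

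Genes that work with P450 enzymes were read from lists in the same averaged diet contrast of liver, where 1.26% of all genes were called. Of 16 genes for electron transfer and haem, 0 were called, with a median log2FC of 0.02. Of 23 transcription factors, 1 was called: Nr1i3, the constitutive androstane receptor, at 52.8, 66.7 and 88.01 CPM (lowest, median, highest) in FED-CTRL, 91.7, 131 and 158 CPM in FED-HFD, 47.2, 54.9 and 71.2 CPM in CR20-CTRL and 78.8, 107 and 175 CPM in CR20-HFD. Control and high fat livers did not overlap under either maternal condition. Its averaged log2FC was 0.92 (SE 0.13, edgeR adjusted p = 0.000198), and in CR20 mice 0.95 (SE 0.18, edgeR adjusted p = 0.0132).

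Growth hormone signalling had 0 of 9 genes called and the female-biased list 0 of 5 tested. In the male-biased list 1 of 9 was called, Selenbp2, a selenium binding protein (log2FC 1.34, SE 0.32, edgeR adjusted p = 0.0248). Among 20 genes of other P450 families 1 was called, the caffeine oxidising Cyp1a2 (log2FC 0.80, SE 0.18, edgeR adjusted p = 0.0198). Conjugation and export genes had 4 of 32 called. The exporter Abcc3 (log2FC 0.86), the sulfotransferase Sult5a1 (0.95) and the glutathione transferase Gsta2 (0.80) rose, with edgeR adjusted p of 0.00124, 0.00726 and 0.0368, and the glucuronosyltransferase Ugt1a5 fell (-1.70, edgeR adjusted p = 0.00339).

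Genes of pericentral hepatocytes, with the members themselves left out of the list, had higher sums on the high fat diet. The sum was 2072, 2457 and 2757 CPM (lowest, median, highest) in FED-CTRL, 2575, 3099 and 3930 CPM in FED-HFD, 1829, 2326 and 2573 CPM in CR20-CTRL and 2568, 2974 and 3526 CPM in CR20-HFD. Of the 10 genes 2 were called higher on the high fat diet (Rhbg, an ammonia transporter, log2FC 0.74, edgeR adjusted p = 0.00390, and Cyp1a2), none was at 0, and the list's median log2FC was 0.44. Periportal genes had 0 of 10 called and a median of -0.25. Hepatocyte genes as a whole had 0 of 7 called and a median of -0.03. The part of the pericentral genes in the members' results was not tested.

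Without the livers of CR20-CTRL mice 4 and 5, an alternative chosen after seeing the data, the same 7 members were called by the averaged diet test, 4 in CR20 mice (Cyp2c37, Cyp2c50, Cyp2c54 and Cyp2d40) and 1 in FED mice (Cyp2c37), by edgeR. This fit tested 37 members among 14077 genes. It called 235 of all genes in the averaged diet test, 56 in CR20 mice and 26 in FED mice.

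Across tissues the members were mostly genes of liver. A fit of all 72 libraries tested 40 members. By the study's methods, liver RNA for sequencing came from a column protocol and that of eWAT and pituitary from RNAzol RT. Differences of liver from the other tissues therefore cannot be told apart from differences in RNA extraction. Compared with eWAT, 36 members were higher in liver and 1 lower, with 27.4% of 19210 genes higher and 38.7% lower. Compared with pituitary, 36 were higher in liver and 3 lower, with 35.1% of genes higher and 41.4% lower. Because samples of the same mouse entered this fit, the mouse number was also used as a replicate block, and with the block 38 and 39 members were called in the 2 comparisons, in place of 37 and 39.

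**Figure D4:**
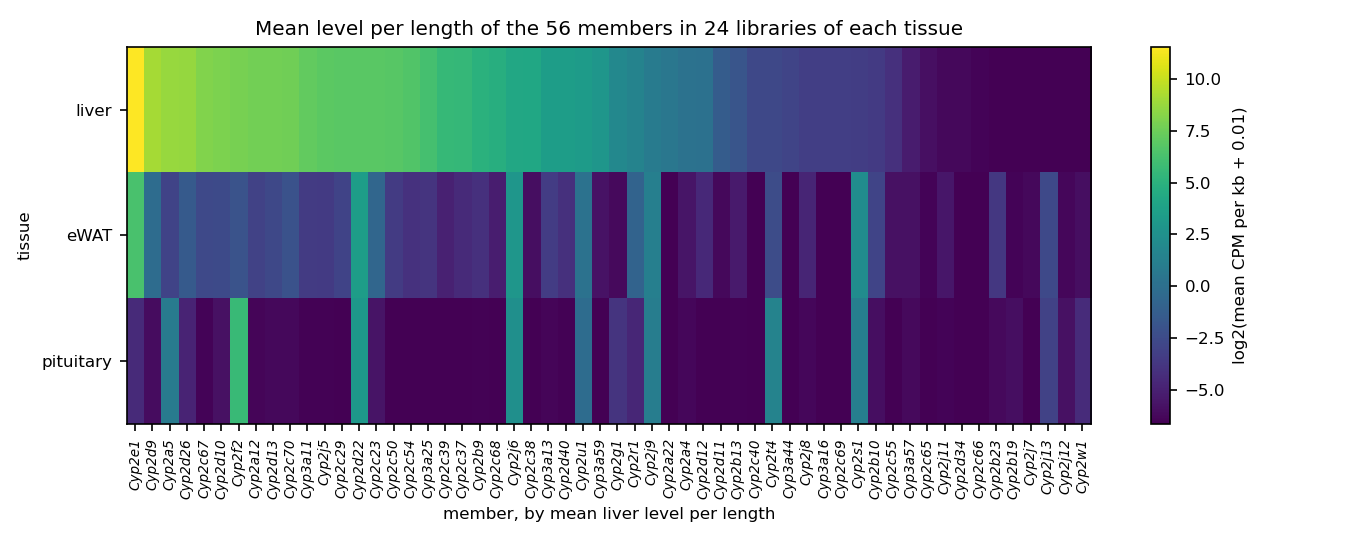
Heat map of the mean level of each member in the 3 tissues, as log2 of the mean CPM per kilobase of exon plus 0.01 (24 libraries per tissue). Most members are bright in liver alone, while Cyp2f2 is bright in liver and pituitary and Cyp2s1 is brighter in eWAT and pituitary than in liver.

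The size of the gap differed widely between members. Cyp2e1 was higher in liver by 6.46 on the log2 scale against eWAT (SE 0.32, edgeR adjusted p = 4.08e-29) and by 17.01 against pituitary (SE 0.49, edgeR adjusted p = 8.17e-43). For Cyp2f2 the order of the other tissues was the opposite, with 11.14 against eWAT (SE 0.28) and 2.78 against pituitary (SE 0.19, edgeR adjusted p = 5.41e-22). Cyp2d22, a widely expressed Cyp2d gene, was higher in liver by 4.15 and 4.44 on the log2 scale.

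Cyp2s1, known from epithelia and from retinoid oxidation, was the member lower in liver than in both other tissues: it ran from 0.0736 to 1.39 CPM in liver, from 4.17 to 59.9 CPM in eWAT and from 7.82 to 16.8 CPM in pituitary, with no overlap (log2FC -4.88 and -4.05, edgeR adjusted p = 8.60e-31 and 1.21e-26). Cyp2t4 was at 2.61 to 6.92 CPM in pituitary, at most 0.689 CPM in liver and at most 0.594 CPM in eWAT, and was lower in liver than in pituitary (log2FC -3.71). Cyp2j13 had no count in liver and 0.254 to 0.852 CPM in pituitary. In eWAT it exceeded 0.1 CPM in 4 libraries, CR20-CTRL mice 4 and 5 (6.70 and 9.50 CPM) and CR20-HFD mice 6 and 7 (0.336 and 1.08 CPM), and 3 of these are the libraries with epididymis genes. Cyp2j9 was near even, with a log2FC of 0.46 against eWAT and 0.50 against pituitary, which did not reach the size limit.

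In eWAT 8 members passed the filter and 1 dominated. Cyp2e1 made up 62.0% of member counts, followed by Cyp2d22 with 15.2%, Cyp2j6 with 8.30% and Cyp2s1 with 6.197%. Per kilobase the means were 79.5 ± 97.3 CPM for Cyp2e1, 11.4 ± 2.96 for Cyp2d22, 7.67 ± 1.04 for Cyp2j6, 4.57 ± 2.58 for Cyp2s1 and 2.36 ± 0.504 for Cyp2j9 (SD, n = 24). Members of liver such as Cyp2d9 were read in few eWAT libraries. Cyp2d9 reached 27.2 CPM in CR20-CTRL mouse 5 and 22.2 CPM in FED-HFD mouse 10, libraries with hepatocyte genes, and was at most 4.72 CPM in the others.

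The CR20 and FED mice on the high fat diet differed in Cyp2e1 in eWAT. Its lowest, median and highest levels were 46.1, 144 and 239 CPM in FED-CTRL, 1.01, 19.9 and 83.3 CPM in FED-HFD, 105, 159.8 and 901 CPM in CR20-CTRL and 76.9, 162 and 960.01 CPM in CR20-HFD. FED-HFD held the 4 lowest values of these 24 mice, and its other mice, 10 and 40 (83.3 and 77.4 CPM), lay just above the lowest CR20-HFD mouse (76.9 CPM). Cyp2e1 was 9.68-fold higher in CR20-HFD than in FED-HFD (log2FC 3.28, SE 0.81, edgeR adjusted p = 0.00903, exact permutation p = 0.00649). That contrast called 9.73% of the 15964 genes tested in eWAT, and Cyp2e1 was the only one of the 8 members called. Averaged over both diets, Cyp2e1 was again the 1 member called (log2FC 2.31, SE 0.55, edgeR adjusted p = 0.0190), with 3.96% of all genes. The medians of CR20-CTRL and CR20-HFD, 159.8 and 162 CPM, were near the 144 CPM of FED-CTRL. All members together, mostly Cyp2e1, took 0.103% and 0.0823% of reads in CR20-CTRL mice 33 and 48. In CR20-HFD mice 31 and 32 they took 0.0676% and 0.110%, and in the other eWAT libraries at most 0.0461%.

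In alternatives chosen after seeing the data, leaving out the 5 libraries with hepatocyte or epididymis genes gave Cyp2e1 a log2FC of 3.84 between the high fat groups (edgeR adjusted p = 0.0179), and leaving out FED-HFD mouse 23 as well gave 3.42 (edgeR adjusted p = 0.0435). The averaged maternal effect was then 2.79 (edgeR adjusted p = 0.0273) and 2.59 (edgeR adjusted p = 0.0280), and Cyp2e1 stayed the 1 member called. These fits called 1690 of 16045 and 630 of 16229 genes between the high fat groups, and 534 and 231 genes for the averaged maternal effect. With a term for the range of animal numbers, and all libraries, the averaged maternal effect was 1.68 (edgeR adjusted p = 0.0760) and no longer passed. Macrophage genes in eWAT summed to 1802 to 9147 CPM in FED-HFD and to 819 to 1947 CPM in the other groups, with 6 of 7 tested lower and 0 higher in CR20-HFD than FED-HFD. Adipocyte genes summed to 10247 to 31296 CPM in FED-HFD and 33089 to 38389 CPM in CR20-HFD, with 2 of 8 called higher. The part of either in the Cyp2e1 difference was not tested.

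For the high fat diet within FED mice 8.01% of genes were called in eWAT and 0 of 8 members. Cyp2e1 had a log2FC of -2.07 (SE 0.78, edgeR adjusted p = 0.0896, exact permutation p = 0.0108) and Cyp2d22 one of -0.48 (SE 0.18, edgeR adjusted p = 0.0916). These are 2 members with an unadjusted p under 0.05, against 25.7% of all genes. DESeq2 called 1 (Cyp2e1) and limma voom with quality weights 2 (Cyp2e1 and Cyp2c23). Of all 15964 genes, DESeq2 called 1516 and limma voom 1542, against 1278 by edgeR. Cyp2d22 ran from 49.4 to 64.9 CPM in FED-CTRL, from 28.0 to 73.3 CPM in FED-HFD, from 48.6 to 86.0 CPM in CR20-CTRL and from 40.03 to 67.3 CPM in CR20-HFD, with 5 of 6 FED-HFD mice at or below 43.0 CPM.

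Cyp2c23, the arachidonic acid epoxygenase of kidney, was between 0.538 and 3.55 CPM in eWAT, and its log2FC of CR20-HFD over FED-HFD was -0.80 (edgeR adjusted p = 0.0893). The interaction in eWAT called 0 members and 2.42% of genes, with Cyp2e1 at 1.94 (SE 1.06, edgeR adjusted p = 0.334). No member had an unadjusted p under 0.05 there, against 18.2% of genes. The averaged diet effect called 0 members and 0.175% of genes, with 1 member and 17.1% of genes at an unadjusted p under 0.05. Limma voom with quality weights called Cyp2e1 and 388 of all 15964 genes. CR20-HFD against CR20-CTRL and CR20-CTRL against FED-CTRL each called 0 members and 0% of genes in eWAT, with 0 members at an unadjusted p under 0.05 (6.03% and 7.39% of genes) and 0 by DESeq2 or voom. The Cyp2e1 log2FC of these was -0.13 (95% interval -1.67 to 1.41) and 1.34 (95% interval -0.23 to 2.91).

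**Figure D5:**
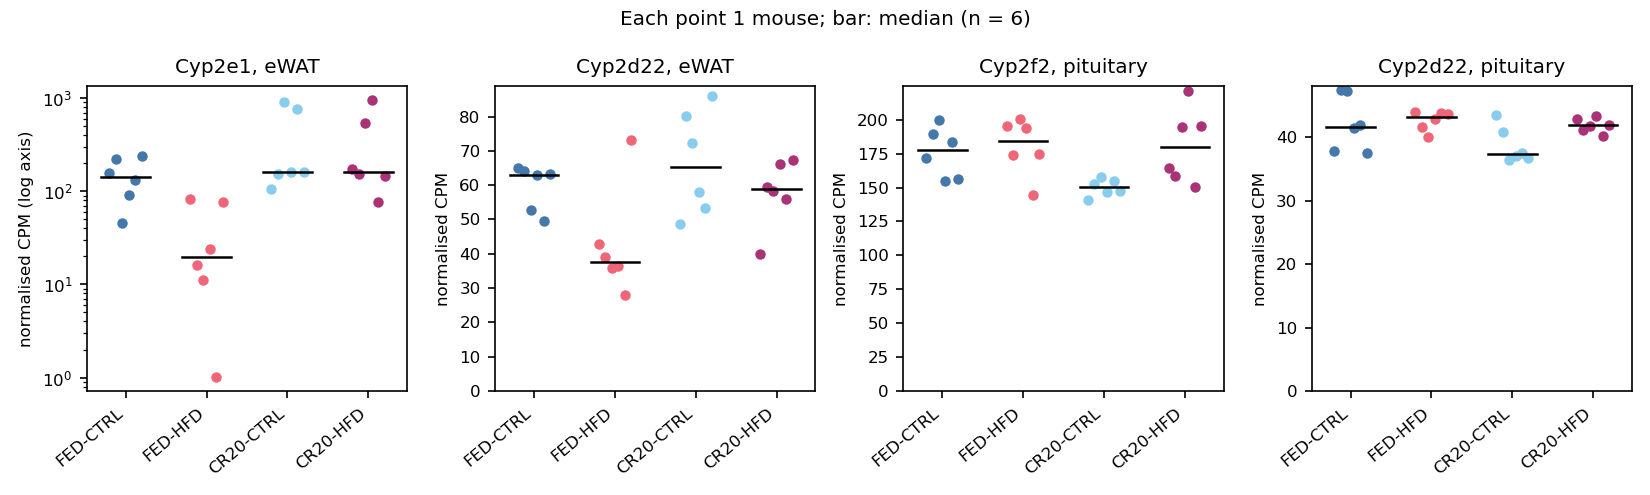
CPM of Cyp2e1 and Cyp2d22 in eWAT and of Cyp2f2 and Cyp2d22 in pituitary by group, with 1 point per mouse and bars at the group median (n = 6). Cyp2e1 in eWAT has a median of 19.9 CPM in FED-HFD against 144 to 162 CPM in the other groups, while Cyp2f2 in pituitary stays between 141 and 221 CPM in every mouse.

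In pituitary 9 members passed the filter, and the leading one was Cyp2f2 with 63.0% of member counts. Per kilobase its mean was 51.6 ± 6.75 CPM (SD, n = 24), above Cyp2d22 at 8.35 ± 0.619, Cyp2j6 at 5.41 ± 0.632, Cyp2t4 at 2.88 ± 0.752 and Cyp2s1 at 2.33 ± 0.426. Cyp2a5 was also read in every pituitary, from 1.13 to 6.27 CPM, while Cyp2e1, the first member of the other tissues, was at most 0.280 CPM and was not tested there.

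No contrast called a member in pituitary. CR20-CTRL against FED-CTRL, CR20-HFD against CR20-CTRL, CR20-HFD against FED-HFD, FED-HFD against FED-CTRL, the maternal average and the interaction each called 0 of 9 members and 0% of 16657 genes by edgeR, and the averaged diet effect 0 of 9 members and 0.006% of genes. Members with an unadjusted p under 0.05 numbered 1, 2, 1, 2, 0, 2 and 3 in that order. The shares of all tested genes with such a p were 17.3%, 7.28%, 6.77%, 9.64%, 13.2%, 11% and 6.23%. DESeq2 and limma voom called 0 members in each contrast. Without FED-HFD mice 10 and 13, left out after seeing the data, edgeR also called 0 of 9 members in each. Cyp2f2 was at 154.9, 178 and 199.8 CPM (lowest, median, highest) in FED-CTRL, 144, 184 and 201 CPM in FED-HFD, 141, 150.1 and 158 CPM in CR20-CTRL and 150.4, 179.7 and 221 CPM in CR20-HFD. CR20-CTRL was the lowest group, with overlap. Its log2FC of CR20-CTRL over FED-CTRL was -0.23 (95% interval -0.41 to -0.05, edgeR adjusted p = 0.184) and of CR20-HFD over CR20-CTRL 0.27 (95% interval 0.08 to 0.45, edgeR adjusted p = 0.555).

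The other small p values in pituitary came from members of low level. Cyp2j9 ran from 7.59 to 13.7 CPM and had an averaged diet log2FC of 0.28 (95% interval 0.11 to 0.46, edgeR adjusted p = 0.380). Cyp2s1 had a log2FC of 0.38 for diet in CR20 mice (edgeR adjusted p = 0.583) and an interaction of 0.47 (edgeR adjusted p = 0.380). Cyp2u1 had an interaction of -0.61 (95% interval -1.09 to -0.12, edgeR adjusted p = 0.367). Cyp2a5 had a log2FC of -0.63 between the high fat groups (95% interval -1.14 to -0.12, edgeR adjusted p = 0.621), with 3.06 to 6.27 CPM in FED-HFD and 1.13 to 5.15 CPM in CR20-HFD, which overlap.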

How the data were processed

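RNA from liver, eWAT and pituitary of the same 24 male mice was sequenced after a stranded library preparation, which the labels give as a TruSeq total RNA kit, while the study's methods name both that and a TruSeq mRNA kit. The authors trimmed reads with Trimmomatic, aligned them to GRCm39 with STAR and counted them per gene with Subread featureCounts, and the deposited values are raw counts. Settings for multi-mapping reads and strand are not given in the sources used here. Genes were named with GENCODE M39 (54749 rows matched, 667 did not). Here edgeR 4.0.16 in R 4.3.3 was run per tissue over all 4 groups (filterByExpr, TMM, glmQLFit, glmQLFTest), with Benjamini-Hochberg adjustment over all tested genes and a call at adjusted p of at most 0.055 and a log2FC of at least 0.58 in size, the limits in the study's methods. Levels are CPM, log2 CPM uses a prior count of 2, and 95% intervals come from the fit. Single members were also tested by exact permutation with scipy 1.17.1. Those p-values are unadjusted and come from the same libraries as the edgeR test, so they are not separate support for a call. Alternatives were limma 3.58.1 voom with and without quality weights (the authors' test had quality weights), DESeq2 1.42.0, other normalizations, filters and thresholds, a term for the range of animal numbers, the groups compared alone and each mouse left out. Scripts were tested on simulated counts.

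The members, the companion and marker lists and the libraries left out were chosen with earlier results of these data known. Genes named were, in liver, the 10 members highest per kilobase, all members called, the 3 smallest p per contrast and the 5 most variable, and in the other tissues the 5 highest, those called and the 3 smallest p. The highest member of each subfamily was named where it was detected. The mouse number is the same across tissues because the tissues come from the same mice, and it pairs no samples within a tissue. No protein sequences were used here. Floors cover counting error only, and as mice may share a dam, p-values measure the spread between these mice.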

Additional observations from a re-analysis of the deposited data

Results flagged for a closer look

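Of 176 groups of 6 mice examined, which do not cover every group of every tested member, 10 held a mouse far from the other 5. Chance gives such a mouse in about 1 in 20 groups. In liver, Cyp2a5 was at 751 CPM in FED-HFD mouse 10 and at 1451 to 2056 CPM in the other 5, and that mouse's eWAT library was the one with the most hepatocyte genes. Cyp2b9 was at 1.748 CPM in CR20-HFD mouse 7 against 39.8 to 112.5 CPM, Cyp2f2 at 886.4 CPM in CR20-HFD mouse 46 against 633.3 to 682.7 CPM, and Cyp2j5 at 582.8 CPM in CR20-HFD mouse 32 against 477.5 to 514 CPM. Cyp3a59 was at 38.56 CPM in FED-CTRL mouse 24 against 13.9 to 19.3 CPM. In eWAT, Cyp2d22 was at 40.03 CPM in CR20-HFD mouse 6 against 55.98 to 67.32 CPM, and Cyp2j9 at 16.02 CPM in CR20-CTRL mouse 4 against 10.6 to 11.7 CPM, both libraries with epididymis genes. In pituitary, Cyp2t4 was at 2.612 CPM in FED-CTRL mouse 24 against 4.68 to 5.74 CPM and at 3.1 CPM in FED-HFD mouse 11 against 5.12 to 6.90 CPM, and Cyp2u1 was at 4.491 CPM in CR20-CTRL mouse 49 against 5.93 to 6.95 CPM.

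Pseudogenes of the Cyp2d cluster, which the naming rule leaves out, were read in every liver. The mean was 145.4 CPM for Cyp2d37-ps (57.5 to 202.6 CPM), 32.53 CPM for Cyp2d38-ps (13.53 to 45.32 CPM) and 27.01 CPM for Cyp2d36-ps (3.124 to 47.22 CPM). How reads that fit both a pseudogene and a member were assigned is not given in the sources used here.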

How the results depend on the processing

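No result reversed under any alternative run. The number of members called in liver by diet in FED mice, 0, was 2 by DESeq2, 3 by voom with quality weights, 1 with only the groups compared, 1 without CR20-CTRL mice 4 and 5 (an alternative chosen after seeing the data) and 0 to 2 with 1 mouse left out. In CR20 mice the 5 calls became 2 with a log2FC of at least 1, 3 by voom without quality weights, 1 with only the groups compared (Cyp2c37, the other folds being about as large) and 3 to 4 with 1 mouse left out. The 7 averaged calls became 4 with a log2FC of at least 1, 9 by voom with quality weights, and 6 to 7 with 1 mouse left out. In eWAT, the 0 calls by diet in FED mice became 2 and 1 by voom with and without quality weights, 1 by DESeq2, 3 with no filter and 0 to 3 with 1 mouse left out. The 1 call between the high fat groups became 2 by voom with quality weights and with no filter, and 1 to 2 with 1 mouse left out. The averaged diet effect in eWAT, 0 calls, had 1 by voom with quality weights, the averaged maternal effect went from 1 to 0 with a term for the range of animal numbers, and the interaction, 0 calls, had 8 with no filter and 0 to 2 with 1 mouse left out. A fit with no filter also tests members that the filter on low counts leaves out. In the filtered fit, 3 of 4 hepatocyte genes tested in eWAT were called lower by the interaction, with 2.42% of all genes. The part of the libraries with hepatocyte genes in the 8 calls was not tested. The cause of these changes in number was not tested. Shares of all genes called are given above for only some of these alternatives. The number of members called stayed 0 in liver for both maternal contrasts, their average and the interaction, and in pituitary for all 7 contrasts, under every alternative run. In the tissue fit the replicate block gave 38 and 39 members in place of 37 and 39, and it could be applied to no other result. Within a tissue, no paired analysis was possible because each mouse number occurs in 1 group. Cyp3a11 in CR20 mice lost its call in 9 of 12 fits that left out a mouse, with adjusted p up to 0.157 (without CR20-CTRL mouse 4). Depth limits what can be said of the 10 members under 3 counts in every liver.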

Other observations

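In eWAT, most calls of companion genes of the P450 system came in 2 contrasts. By edgeR these called 8.01% (FED-HFD against FED-CTRL) and 9.73% (CR20-HFD against FED-HFD) of all tested genes. Between FED-HFD and FED-CTRL, Por, the reductase that passes electrons to P450 enzymes (log2FC -0.59), and Alad, a haem synthesis enzyme (-0.70), fell and the haem oxygenase Hmox1 rose (1.54), with edgeR adjusted p of 0.0298, 0.00445 and 0.00828, which is 3 of 16 genes tested for electron transfer and haem. Alad was higher (0.80, edgeR adjusted p = 0.00111) and Hmox1 lower (-1.56, edgeR adjusted p = 0.00573) in CR20-HFD than in FED-HFD, 2 of the 16. These contrasts share the FED-HFD mice. The clock-controlled factors Dbp (-1.11), Tef (-0.80) and Hlf (-0.92) were lower in FED-HFD than in FED-CTRL, with edgeR adjusted p of 0.0247, 0.00591 and 0.00903, which is 3 of 14 transcription factors tested. Of 21 conjugation and export genes tested, 5 were lower in FED-HFD than in FED-CTRL, among them Gsta3 (-1.03) and Sult1a1 (-0.83), with edgeR adjusted p of 0.00621 and 0.00680, and Gstt1 (0.91, edgeR adjusted p = 0.00921) was 1 of 4 of the 21 that were higher in CR20-HFD than in FED-HFD. Of 11 genes of other P450 families tested, 2 were higher in FED-HFD than in FED-CTRL, Cyp1b1 (1.02) and Cyp7b1 (1.34), with edgeR adjusted p of 0.0106 and 0.0429. The male-biased list had 2 of 4 higher in FED-HFD than in FED-CTRL and 1 of 4 higher in CR20-HFD than in FED-HFD, and growth hormone signalling (9 tested) and the female-biased list (4 tested) had 0 in both. Macrophage genes, as given above, differed in the same 2 contrasts, and their part in these results was not tested. In the averaged diet effect Hlf was called (-0.73, edgeR adjusted p = 0.0428), 1 of 14 transcription factors, with 0.175% of all genes. The averaged maternal effect called Gstt1 (0.60, edgeR adjusted p = 0.0295) and Sult1e1 (1.09, edgeR adjusted p = 0.0352). These were 2 of 21 conjugation and export genes, with 3.96% of all genes.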
